A study of Mus musculus with 6 samples.

Results

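Nuclear genes encode most subunits of the oxidative phosphorylation system, the 5 protein complexes of the inner mitochondrial membrane that oxidise NADH and succinate, reduce oxygen and make ATP. The genes described here are the rows of the deposited expression table whose symbols begin as those of structural subunits of complexes I to V do (Nduf with a subunit letter and number, Sdha to Sdhd, Uqcr, Cyc1, Cox4 to Cox8, Atp5), with annotated pseudogenes left out. The rule used symbols and no measured value. It gave 84 of 27366 features: 38 in complex I, 4 in complex II, 9 in complex III, 16 in complex IV and 17 in complex V. Of these, 83 passed the filter of a mean of at least 1 scaled read. The exception was Ndufa11b, which had 1 read in knockout 1 and 2 reads in control 3 and was listed at 0 in the other 4 libraries.

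RNA sequencing was done on mouse satellite cells, the resident stem cells of skeletal muscle, kept in serum-containing growth medium with basic FGF and collected at day 4. The labels put 3 libraries in an Islr knockout group and 3 in a control group, numbered 1 to 3 in each. Islr encodes a secreted leucine-rich repeat protein. According to the design text, cells were separated by flow cytometry into those with and those without Islr. The sources used here do not give how the knockout was made, nor the strain, age or number of animals. No label states whether replicates are different mice or cultures, so p-values below measure only the spread between these libraries, which may be technical.

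Library totals ran from 16456917 to 20531276 reads on genes. Values are reads divided by the size factor of the library, called scaled reads. Differences are log2 fold changes of knockout over control on log2(scaled reads + 1). Islr itself had 257, 7.38 and 10.9 scaled reads in libraries with the labels knockout 1, 2 and 3, against 181, 12.8 and 1579 in those with the labels control 1, 2 and 3. The library labelled knockout 1 thus held more Islr than 2 of the control libraries, against its label, so the groups are named here by their labels. The libraries also differed in their levels of muscle differentiation genes. Myog, the transcription factor of differentiating myoblasts, had 37228, 1998 and 5737 scaled reads in knockout 1, 2 and 3, against 43369.9, 417 and 43261 in control 1, 2 and 3. In these bulk samples, fewer cells of a type and less RNA per cell cannot be told apart.

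Complex I (NADH dehydrogenase) and complex II (succinate dehydrogenase) feed electrons through ubiquinone to complex III, cytochrome c carries them to complex IV (cytochrome c oxidase), and complex V (ATP synthase) uses the proton gradient to make ATP. Genes for ubiquitous subunits are transcribed in nearly all cells, with NRF1, GABP (an ETS family factor), ERR proteins and YY1 among their known regulators. Mature skeletal and cardiac muscle replace 3 small subunits of complex IV by muscle isoforms: Cox6a2 takes the place of Cox6a1, Cox7a1 that of Cox7a2, and Cox8b that of Cox8a. Muscle genes are often bound through E-boxes by MyoD family factors.

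The isoform pairs carry the contrast between muscle and ubiquitous subunits, so their promoters are printed, except that of Cox6a2, which was not at hand. Each stretch holds 250 bases before and 50 after the annotated start, from RefSeq on GRCm38.p6, 5′ to 3′ on the strand of the gene. Capitals mark matches, on either strand, to the NRF1 consensus (the 2 longest capital runs in Cox6a1, in which the sixth base is free), CCGGAAG (ETS), AAGGTCA (ERR), AAGATGGC (YY1) or CAGCTG (E-box). Cox8b lies at chr7:140900397-140900696 on the minus strand, Cox8a at chr19:7217567-7217866 on the minus strand, Cox7a1 at chr7:30183921-30184220 on the plus strand, Cox7a2 at chr9:79759804-79760103 on the minus strand and Cox6a1 at chr5:115348909-115349208 on the minus strand.
Cox8b: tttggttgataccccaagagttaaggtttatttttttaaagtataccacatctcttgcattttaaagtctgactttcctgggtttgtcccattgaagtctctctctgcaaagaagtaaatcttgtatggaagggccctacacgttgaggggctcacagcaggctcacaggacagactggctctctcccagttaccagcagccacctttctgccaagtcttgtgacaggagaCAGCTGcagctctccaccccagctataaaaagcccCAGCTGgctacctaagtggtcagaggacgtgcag
Cox8a: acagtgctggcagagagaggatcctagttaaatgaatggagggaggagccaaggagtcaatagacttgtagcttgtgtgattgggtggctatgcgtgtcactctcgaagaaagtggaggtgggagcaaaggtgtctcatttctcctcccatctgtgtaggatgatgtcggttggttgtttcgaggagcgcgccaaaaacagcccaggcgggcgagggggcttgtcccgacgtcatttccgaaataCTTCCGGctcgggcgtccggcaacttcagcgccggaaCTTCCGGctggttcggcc
Cox7a1: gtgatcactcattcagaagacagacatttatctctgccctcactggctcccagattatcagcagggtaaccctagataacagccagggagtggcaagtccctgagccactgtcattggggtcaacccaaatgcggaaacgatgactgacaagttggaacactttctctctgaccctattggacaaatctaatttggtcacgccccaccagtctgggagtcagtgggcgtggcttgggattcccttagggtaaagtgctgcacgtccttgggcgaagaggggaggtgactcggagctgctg
Cox7a2: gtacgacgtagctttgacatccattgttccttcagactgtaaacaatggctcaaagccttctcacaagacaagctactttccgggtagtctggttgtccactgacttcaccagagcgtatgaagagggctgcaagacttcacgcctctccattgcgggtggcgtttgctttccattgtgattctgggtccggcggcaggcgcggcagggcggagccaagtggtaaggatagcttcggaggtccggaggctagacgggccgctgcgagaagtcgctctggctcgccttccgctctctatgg
Cox6a1: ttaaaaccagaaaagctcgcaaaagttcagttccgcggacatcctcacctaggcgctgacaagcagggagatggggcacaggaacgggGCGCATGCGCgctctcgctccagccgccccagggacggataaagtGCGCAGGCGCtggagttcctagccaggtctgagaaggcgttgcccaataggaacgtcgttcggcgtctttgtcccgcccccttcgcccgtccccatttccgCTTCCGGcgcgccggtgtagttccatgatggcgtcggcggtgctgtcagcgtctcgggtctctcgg
In this window Cox8b held 2 E-box matches, which begin at -19 and 16 relative to the start, and no match to the other 4 motifs. The window of Cox8a held 2 ETS matches, at -5 and 32. Cox6a1 had 2 NRF1 matches, at -162 and -117, and an ETS match at -16. In the windows of Cox7a1 and Cox7a2 none of the 5 sets of letters was found. The promoters also differed in base composition: Cox8b had 2 CG dinucleotides and 48.3% G+C, and Cox7a1 had 7 and 53%, whereas Cox6a1 had 32 and 63%, Cox7a2 20 and 56.7%, and Cox8a 19 and 56%.

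Promoter sequence was matched for 66 of the 84 genes, of which 63 were common subunits, meaning all tested genes other than the tissue-restricted Cox6a2, Cox7a1, Cox8b, Cox4i2, Cox6b2 and Ndufa4l2. NRF1 letters were present in 25.4% of the common subunits' windows, against 4.78% of all 27025 promoters. ETS letters were present in 25.4% against 9.12%, ERR letters in 12.7% against 4.66%, and YY1 letters in 12.7% against 2.88%. E-box letters went the other way, with 7.94% against 16.1%. These shares describe the windows and no more, and a match is not a bound site.

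No subunit passed the test between the knockout and control libraries. In the limma test on all 20344 genes, 0 of 83 subunits and 0 genes in all (0%) had an adjusted p under 0.05. At an unadjusted p under 0.05 there were 276 genes (1.36%) and 0 subunits, and every subunit had a limma adjusted p of 1.0. The edgeR and DESeq2 tests also called 0 genes, with 162 and 318 genes and 0 subunits at an unadjusted p under 0.05. The subunit with the smallest limma p was Atp5mpl, a small membrane subunit of ATP synthase, with an unadjusted p of 0.102 and a log2 fold change of -0.47 ± 0.25 (SE).

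The signs of the differences were nevertheless lopsided. The log2 fold change was negative for 79 of the 83 subunits, with a background of 47% among all genes tested and 55.6% among genes with at least 100 scaled reads per kilobase. Among the 77 common subunits the count was 76, the exception being Ndufa1, an accessory subunit of complex I, at 0.03. The median over the 83 subunits was -0.29, against 0.03 over all genes. The 95% confidence interval of every common subunit held 0, with upper bounds between 0.11 and 1.03. Genes of these complexes vary together from library to library, so the count of signs is not a count of independent events. It rested on the libraries unequally: the median was -0.13 with 69 subunits negative without control 3, and -0.44 with 82 negative without control 2. Without control 2, 2 of the 83 subunits had an unadjusted limma p under 0.05, Ndufb7 and Atp5l, both at an adjusted p of 1.0. In that fit 520 of all 20514 genes tested had an unadjusted limma p under 0.05, a share like that of the subunits.

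The same replicate number in both groups gave correlated deviations, so differences within a number are also given. The median difference over the 83 subunits was -0.41 in number 1, 0.10 in number 2 and -0.53 in number 3. The knockout library was the lower one for 77, 29 and 78 of the 83 subunits in numbers 1, 2 and 3. Number 2 therefore ran against the other two for most subunits. Lower in all 3 pairs were 27 subunits (background 12.1%, and 18.5% among genes with at least 100 scaled reads per kilobase), and higher in all 3 was only Cox4i2 (background 12.2%). In number 1, Cox4i2 had 1.14 scaled reads in knockout 1 and 1.11 in control 1. That is a single read in each, so this pair differed only through the size factors. A limma fit blocked on replicate number again called 0 subunits. The smallest unadjusted limma p in that fit was 0.0551, for Ndufa4, with an adjusted p of 0.92, and 933 genes in all (4.59%) and 0 subunits had an unadjusted p under 0.05.

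**Figure D1:**
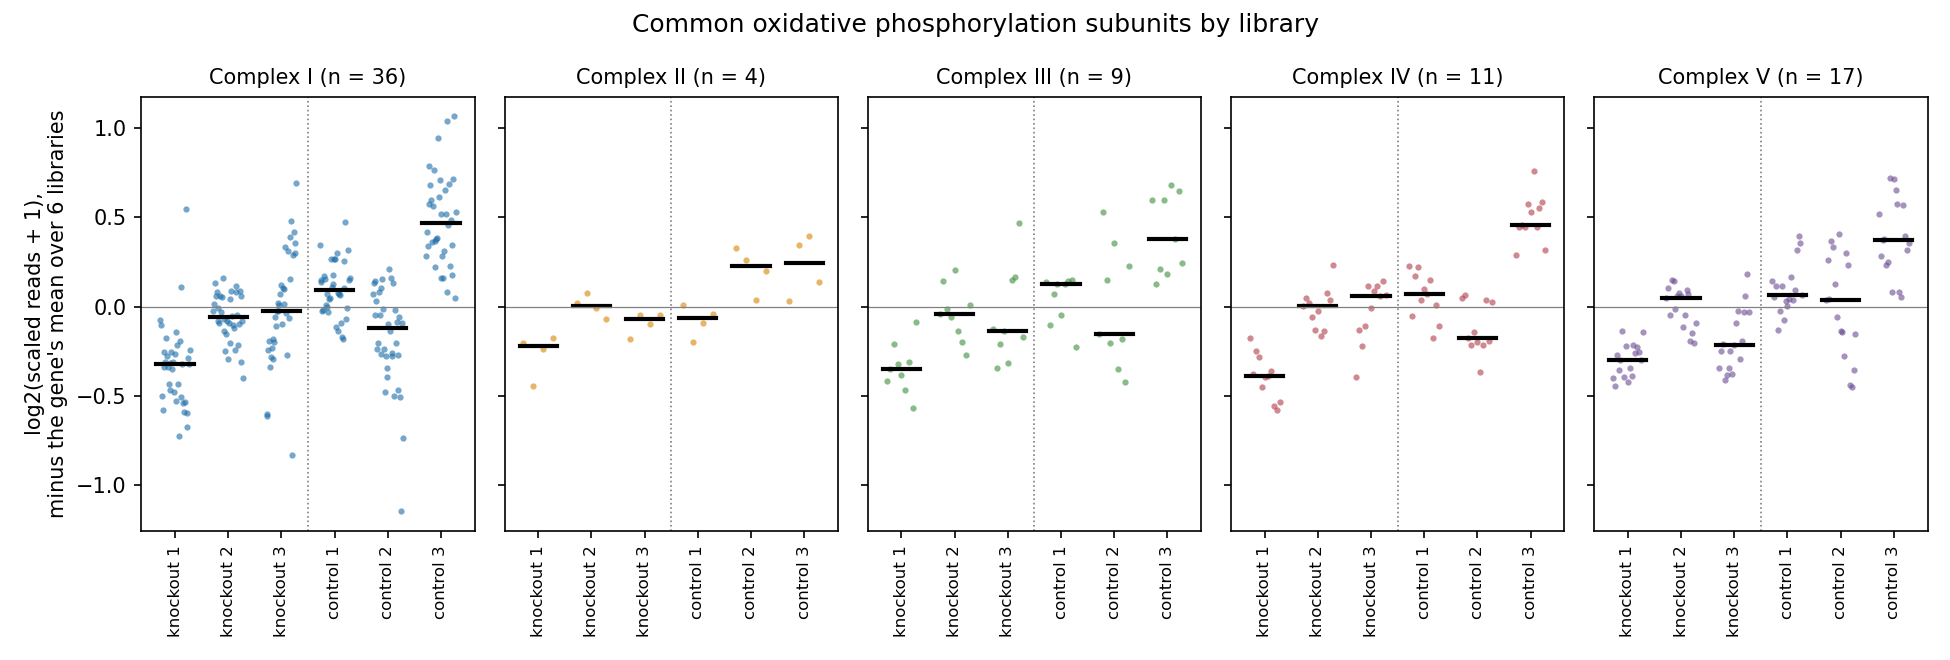
Level of each common subunit in each library, as log2(scaled reads + 1) minus the gene's mean over the 6 libraries, in panels for complexes I to V. Points are genes, horizontal bars are medians, and the 3 knockout libraries stand left of the dotted line with the 3 control libraries on the right. The points of control 3 lie highest and those of knockout 1 lowest in most panels. The median of control 2 lies high in complex II and below 0 in complexes I, III and IV. In complex III the points of control 2 lie on both sides of 0.

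Library by library, control 3 held the highest level for 63 of the 83 subunits and knockout 1 the lowest for 53. The highest level of 6 subunits was in a knockout library: Ndufb2 in knockout 1, and Ndufa3, Ndufb6, Ndufa1, Cox4i2 and Cox6b2 in knockout 3. Control 2 was highest for 9 subunits, Ndufs1, Sdhd, Sdha, Cyc1, Uqcrc1, Atp5g2, Atp5a1, Atp5b and Atp5g3, and lowest for 12, among them Ndufv3, Atp5e, Atp5k, Atp5l and the 3 muscle isoforms. Summed per kilobase of transcript, the 83 subunits stood at 196713, 248659 and 232883 scaled reads in knockout 1, 2 and 3, against 260034, 248835 and 333059 in control 1, 2 and 3. Knockout 2 and control 2 were nearly equal, whereas knockout 1 and 3 lay below control 1 and 3.

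Groups that did not overlap were found for 10 subunits, all lower in the knockout libraries (background 2.11%, and 2.41% among genes with at least 100 scaled reads per kilobase), and for 0 that were higher (background 2.65%). Among them were Ndufa4, Ndufa10, Ndufb10, Ndufa9, Sdha, Uqcrfs1, Cox5a, Atp5d and Atp5f1. When reads were scaled by library size alone, 5 such subunits were left, and 17 instead of 27 were lower in all 3 pairs. The shares over all genes were not computed with that scaling, so these counts have no background. With that scaling the median log2 fold change was -0.25 over the subunits and 0.07 over all genes. The main scaling gave -0.29 and 0.03.

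Complex I is the largest complex and takes electrons from NADH. Over its 37 tested genes the log2 fold change had a median of -0.28, with 36 negative. That median was -0.12 without control 3, -0.18 without knockout 1 and -0.45 without control 2. The core subunits carry the flavin, the iron-sulfur clusters and the quinone site, and all 7 measured here were negative, with a median of -0.28. Ndufs1, which holds several iron-sulfur clusters, stood apart from the other core subunits in being highest in control 2. The 28 common accessory subunits had a median of -0.27, with 27 negative, and 7 lower in all 3 pairs.

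Ndufa10, an accessory subunit of the membrane arm, had 2778, 3011 and 1949 scaled reads in knockout 1, 2 and 3, against 3303, 3271 and 3984 in control 1, 2 and 3. Knockout 3 was the lowest library and control 3 the highest, and without overlap the log2 fold change was -0.47 ± 0.26 (SE). Ndufb10, also in the membrane arm, had 1197, 1857 and 1433 scaled reads in knockout 1, 2 and 3, against 1863, 1872 and 2145 in control 1, 2 and 3. Here knockout 2 nearly reached the control libraries, and the log2 fold change was -0.41 ± 0.25 (SE). Ndufa9, near the quinone site, had the tightest knockout group of the 3, at 1126, 1191 and 1121 scaled reads, against 1281, 1345 and 1632 in control 1, 2 and 3. Its log2 fold change was -0.30 ± 0.23 (SE).

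Ndufa4 was named as a complex I subunit and is now regarded as part of complex IV. It had 2866, 2967 and 1992 scaled reads in knockout 1, 2 and 3, against 3841, 3165 and 3677 in control 1, 2 and 3. Each knockout library lay below each control library, with a log2 fold change of -0.47 ± 0.26 (SE). Its level of 6706 scaled reads per kilobase was the highest of the complex I genes, whose median over the 36 common ones was 1497. Its relative Ndufa4l2, known as a hypoxia-responsive gene, was at 9.13, 7.38 and 5.02 scaled reads in knockout 1, 2 and 3, against 5.55, 5.83 and 23.9 in control 1, 2 and 3. Only control 3 stood out, and Ndufa4l2 made up at most 0.319% of the summed level per kilobase of the pair in any library.

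Complex II oxidises succinate and belongs to the tricarboxylic acid cycle as well as to the respiratory chain. Unlike the other complexes, it has no mitochondrially encoded subunit. All 4 genes were lower in all 3 pairs, also in number 2, and their median log2 fold change was -0.24. Sdha, the flavoprotein with the succinate site, had 4872, 5256 and 5342 scaled reads in knockout 1, 2 and 3, against 5362, 6319.6 and 6059 in control 1, 2 and 3. The groups did not overlap, although knockout 3 and control 1 were nearly equal, and the log2 fold change was -0.20 ± 0.23 (SE). Sdhb, the iron-sulfur subunit, had 1731, 2477 and 2279.9 scaled reads in knockout 1, 2 and 3, against 2052, 2820.1 and 2992 in control 1, 2 and 3. Knockout 2 and 3 exceeded control 1, so the groups overlapped. The membrane anchors Sdhc and Sdhd had log2 fold changes of -0.23 ± 0.24 and -0.24 ± 0.23 (SE). Sdhc stood at 2364, 2765 and 2599 scaled reads in knockout 1, 2 and 3, against 2614, 2857 and 3664 in control 1, 2 and 3. Sdhd stood at 2639, 3086 and 2685 in knockout 1, 2 and 3, against 3056, 3812 and 3111 in control 1, 2 and 3. In both anchors knockout 2 reached into the control range.

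Complex III passes electrons from ubiquinol to cytochrome c. All 9 genes had a negative log2 fold change, with a median of -0.31, which was -0.14 without control 3. Cyc1, the cytochrome c1 heme protein, had 3460.3, 4875 and 3472 scaled reads in knockout 1, 2 and 3, against 4115, 6360.4 and 4813 in control 1, 2 and 3. It was highest in control 2 and lower in the knockout of every pair, by 0.25, 0.38 and 0.47 on the log2 scale, and over the groups the log2 fold change was -0.37 ± 0.28 (SE). Uqcrfs1, the Rieske iron-sulfur protein, had 2808, 3223 and 2806 scaled reads in knockout 1, 2 and 3, against 3413, 3607 and 3752 in control 1, 2 and 3. These groups did not overlap, with a log2 fold change of -0.29 ± 0.22 (SE). The core proteins Uqcrc1 and Uqcrc2 had log2 fold changes of -0.33 and -0.16.

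Within number 2, the median difference of the 5 small subunits of complex III was 0.15, and that of the 4 catalytic and core genes was -0.19. No test compared these roles. Their median transcript lengths were 474.5 and 1586.5 bases, and other genes had a like split by length in number 2, with medians of 0.13 under 750 bases and -0.12 at 1500 bases or more. Uqcr10, a small subunit, had 1651, 2142 and 2017 scaled reads in knockout 1, 2 and 3, against 2416, 1979.9 and 3329 in control 1, 2 and 3. Uqcrh, the hinge protein that helps to dock cytochrome c, had 2473, 2973 and 2811 scaled reads in knockout 1, 2 and 3, against 3385, 2685 and 4686 in control 1, 2 and 3. Control 2 sat among the knockout libraries for both genes. Uqcrq, a small subunit next to cytochrome b, was the most abundant gene of the complex at 6767 scaled reads per kilobase, with a log2 fold change of -0.31 ± 0.32 (SE).

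Complex IV reduces oxygen to water, and its catalytic centre is encoded in mitochondrial DNA, so the nuclear genes supply the surrounding subunits. The log2 fold change was negative for 13 of its 16 genes, with a median of -0.29. That median was -0.055 without control 3, -0.18 without knockout 1 and -0.46 without control 2. All 11 common genes were negative, and all 11 were highest in control 3. Cox5a, a subunit on the matrix side, had 1692, 1919 and 1458 scaled reads in knockout 1, 2 and 3, against 2244, 1976 and 2339 in control 1, 2 and 3. The groups did not overlap and knockout 2 came close to control 2, with a log2 fold change of -0.38 ± 0.23 (SE). Cox7c, a small membrane subunit, had 2834, 3807 and 3356 scaled reads in knockout 1, 2 and 3, against 3545, 3851 and 5017 in control 1, 2 and 3. Cox7b, another membrane subunit, had 1916, 2306 and 1957 scaled reads in knockout 1, 2 and 3, against 2561, 2014 and 3124 in control 1, 2 and 3. Both overlapped between groups, with log2 fold changes of -0.31 ± 0.26 and -0.30 ± 0.26 (SE). A gene with a near-identical transcript shares sequence with Cox7c, so its reads could be split between them.

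Muscle isoforms varied between libraries far more than between groups. On GRCm38 all 3 genes lie on chromosome 7, Cox6a2 from 128205435 to 128206387, Cox7a1 from 30184144 to 30186078 and Cox8b from 140898945 to 140900446. Cox6a2 had 348, 10.1 and 81.2 scaled reads in knockout 1, 2 and 3, against 254, 4.66 and 690.4 in control 1, 2 and 3. Both libraries of number 2 were near the floor, and the highest value was in control 3. Its log2 fold change was -0.55 ± 2.21 (SE), with a 95% confidence interval from -6.08 to 4.98. The ubiquitous Cox6a1 had 3941, 6725 and 5982 scaled reads in knockout 1, 2 and 3, against 5301, 5826 and 7135 in control 1, 2 and 3. It varied within a narrow range, with a log2 fold change of -0.16 ± 0.29 (SE).

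Cox8b had 220.2, 13.8 and 159.9 scaled reads in knockout 1, 2 and 3, against 287, 1.17 and 654 in control 1, 2 and 3. Control 2 held a single read, and control 3 again the highest level. Its log2 fold change of 0.12 ± 2.50 (SE) turned negative in edgeR and DESeq2, at -1.26 in both, and in edgeR with the replicate block, at -0.60. The ubiquitous Cox8a had 3638, 5636 and 5573 scaled reads in knockout 1, 2 and 3, against 4733, 5482 and 7844 in control 1, 2 and 3, with a log2 fold change of -0.28 ± 0.30 (SE). Knockout 1 was its lowest library and control 3 its highest.

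Cox7a1 was the least abundant of the 3 muscle isoforms, at 18.3, 12.9 and 40.2 scaled reads in knockout 1, 2 and 3, against 36.7, 10.5 and 58.8 in control 1, 2 and 3. It followed the same order of libraries within the control group as Cox6a2 and Cox8b, but over a smaller range, and its log2 fold change was -0.41 ± 0.75 (SE). Cox7a2 had 1706, 1994 and 2374 scaled reads in knockout 1, 2 and 3, against 2434, 1889 and 2988 in control 1, 2 and 3. Its groups overlapped, with a log2 fold change of -0.26 ± 0.27 (SE).

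**Figure D2:**
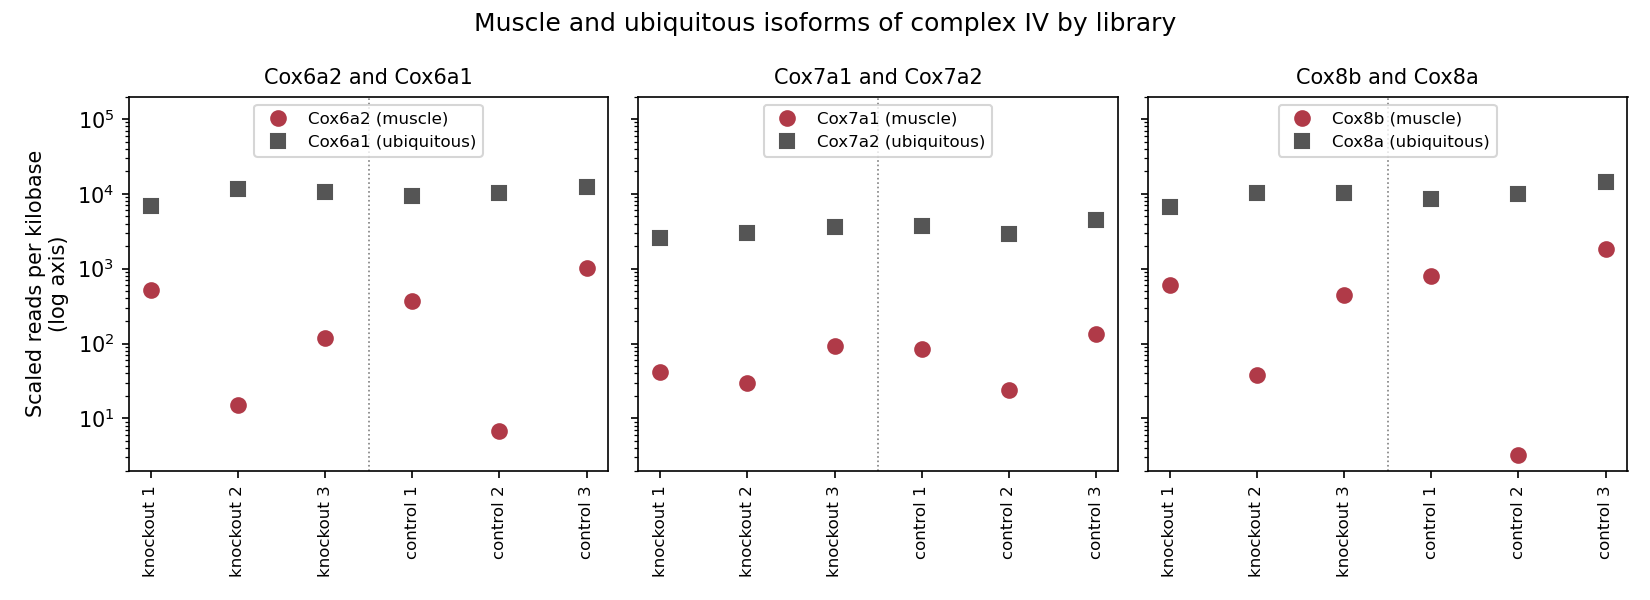
Levels of the muscle (circles) and ubiquitous (squares) isoforms of 3 complex IV subunits, in scaled reads per kilobase of transcript on a log axis, with the 3 knockout libraries left of the dotted line and the 3 control libraries on the right. Squares stay within a narrow band in all libraries, whereas circles of Cox6a2 and Cox8b are lowest in knockout 2 and control 2 and highest in control 3.

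The log2 ratio of each muscle isoform to its ubiquitous partner removes what both share within a library. The ratio of Cox6a2 to Cox6a1 averaged -6.31 ± 2.87 in the knockout libraries and -5.92 ± 3.58 in the control libraries (SD, n = 3 each), a difference of -0.39 (two-sided exact permutation p = 0.9). For Cox7a1 to Cox7a2 the averages were -6.49 ± 0.66 and -6.34 ± 0.90 (knockout, then control), a difference of -0.15 (two-sided exact permutation p = 0.8). For Cox8b to Cox8a they were -5.91 ± 2.37 and -6.31 ± 4.33 (knockout, then control), a difference of 0.40 (two-sided exact permutation p = 0.9). With 3 libraries against 3, the smallest p this test can give is 0.1. With Benjamini-Hochberg adjustment over the 3 ratios, each exact permutation p was 0.9. Across the 6 libraries the ratio spanned 99.7-fold for Cox6a2, 3.29-fold for Cox7a1 and 211-fold for Cox8b.

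Even where they were highest, muscle isoforms were a minor part of their pairs. Cox8b made up 8.46%, 0.374% and 4.20% of the summed level per kilobase of Cox8b and Cox8a in knockout 1, 2 and 3, against 8.47%, 0.0325% and 11.3% in control 1, 2 and 3. Cox6a2 made up 6.90%, 0.127% and 1.13% of its pair in knockout 1, 2 and 3, against 3.87%, 0.0671% and 7.51% in control 1, 2 and 3. Cox7a1 stayed between 0.827% and 2.87% in all libraries.

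These levels stood beside those of muscle differentiation. Summed over 20 markers of differentiating muscle, the level per kilobase was 311488, 12556 and 42629 scaled reads in knockout 1, 2 and 3, against 331599, 3261 and 197698 in control 1, 2 and 3. The order of libraries in this sum was not the same as for the isoforms. Control 3 held more Cox6a2, Cox7a1 and Cox8b than knockout 1 and control 1 with a smaller marker sum. Single markers differed in this: 10 were highest in knockout 1, 6 in control 1 and 4 in control 3. All 20 markers were detected, with Ckmt2, Myh8 and Tnnc2 at 0 in some libraries. The part of differentiation in the isoform ratios was not tested. The summed level per kilobase of the 77 common subunits was 195531, 248496 and 231939 scaled reads in knockout 1, 2 and 3, against 258747, 248779 and 329874 in control 1, 2 and 3. Within a number, the median difference of the markers was 0.02, 2.04 and -2.18 in numbers 1, 2 and 3. That of the common subunits was -0.42, 0.05 and -0.52, so the signs were alike in numbers 2 and 3. In number 2 the median of the subunits was near 0, with 48 higher and 29 lower in the knockout. Among the control libraries both sums were lowest in control 2, whereas among the knockout libraries the marker sum was highest, and the sum of the subunits lowest, in knockout 1. The part of differentiation in the subunits' differences was not tested either.

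Other tissue-restricted subunits of complex IV were also low. Cox4i2, known from lung as an oxygen-responsive isoform, had 1.14, 11.1 and 13.4 scaled reads in knockout 1, 2 and 3, against 1.11, 2.33 and 10.2 in control 1, 2 and 3. Knockout 1 and control 1 held single reads, and the log2 fold change was 0.75 ± 0.98 (SE). It made up between 0.0311% and 0.221% of the summed level per kilobase with its partner Cox4i1 in the knockout libraries, and between 0.0201% and 0.124% in the control libraries. Cox6b2, an isoform known from testis, had 2.28, 24.9 and 116 scaled reads in knockout 1, 2 and 3, against 11.1, 5.83 and 78.4 in control 1, 2 and 3. Both libraries of number 3 stood out, with Cox6b2 at 3.87% of its pair with Cox6b1 in knockout 3 and 1.82% in control 3.

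Complex V makes ATP, and its 17 genes were all negative, with a median log2 fold change of -0.35. This median was the most negative of the 5 complexes over all libraries, but not without control 2 (-0.42 for complex V, -0.46 for complex IV) or without knockout 3 (-0.34 for complex V, -0.37 for complex IV). No test compared the complexes with each other. Atp5b, the catalytic beta subunit, was the most abundant of all 84 genes at 20421 scaled reads per kilobase. It had 33354, 41395 and 31582 scaled reads in knockout 1, 2 and 3, against 39732, 47657 and 41035 in control 1, 2 and 3. The knockout library was lower in each pair, by 0.25, 0.20 and 0.38 on the log2 scale, but knockout 2 lay above control 1 and 3. Over the groups its log2 fold change was -0.28 ± 0.26 (SE). Atp5d, the delta subunit of the central stalk, had 4419.7, 5154 and 4602 scaled reads in knockout 1, 2 and 3, against 5775, 5486 and 6898 in control 1, 2 and 3. Atp5f1, a subunit of the peripheral stalk, had 5039, 5489 and 4354 scaled reads in knockout 1, 2 and 3, against 6004, 6042 and 6573 in control 1, 2 and 3. Neither gene overlapped between groups, and the log2 fold changes were -0.35 ± 0.24 and -0.33 ± 0.23 (SE).

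The 3 Atp5g genes encode the same mature subunit of the proton-carrying c-ring, and each was lower in all 3 pairs. Atp5g1 had 2084, 3057 and 2386 scaled reads in knockout 1, 2 and 3, against 2946, 3397 and 3451 in control 1, 2 and 3, with a log2 fold change of -0.39 ± 0.25 (SE). Only knockout 2 reached into the control range. Atp5g3 had 5952, 7463 and 6236 scaled reads in knockout 1, 2 and 3, against 7601, 8372 and 7377 in control 1, 2 and 3, and overlapped through knockout 2 and control 3. The 3 genes kept nearly constant proportions. Per kilobase, Atp5g3 supplied between 53.3% and 59.5% of their sum in the 6 libraries, Atp5g2 between 34.4% and 40.0%, and Atp5g1 between 5.41% and 6.69%. Atp5mpl stood at 1406, 1916 and 1463 scaled reads in knockout 1, 2 and 3, against 2049, 1906 and 2655 in control 1, 2 and 3, so that its groups overlapped only through knockout 2 and control 2, which were nearly equal. The 5 small membrane subunits of ATP synthase were all higher in the knockout of number 2, with a median of 0.15, and the 5 F1 subunits had a median of -0.20 there. These roles too differed in length, with median transcripts of 489 and 1166 bases, and were not tested against each other.

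**Figure D3:**
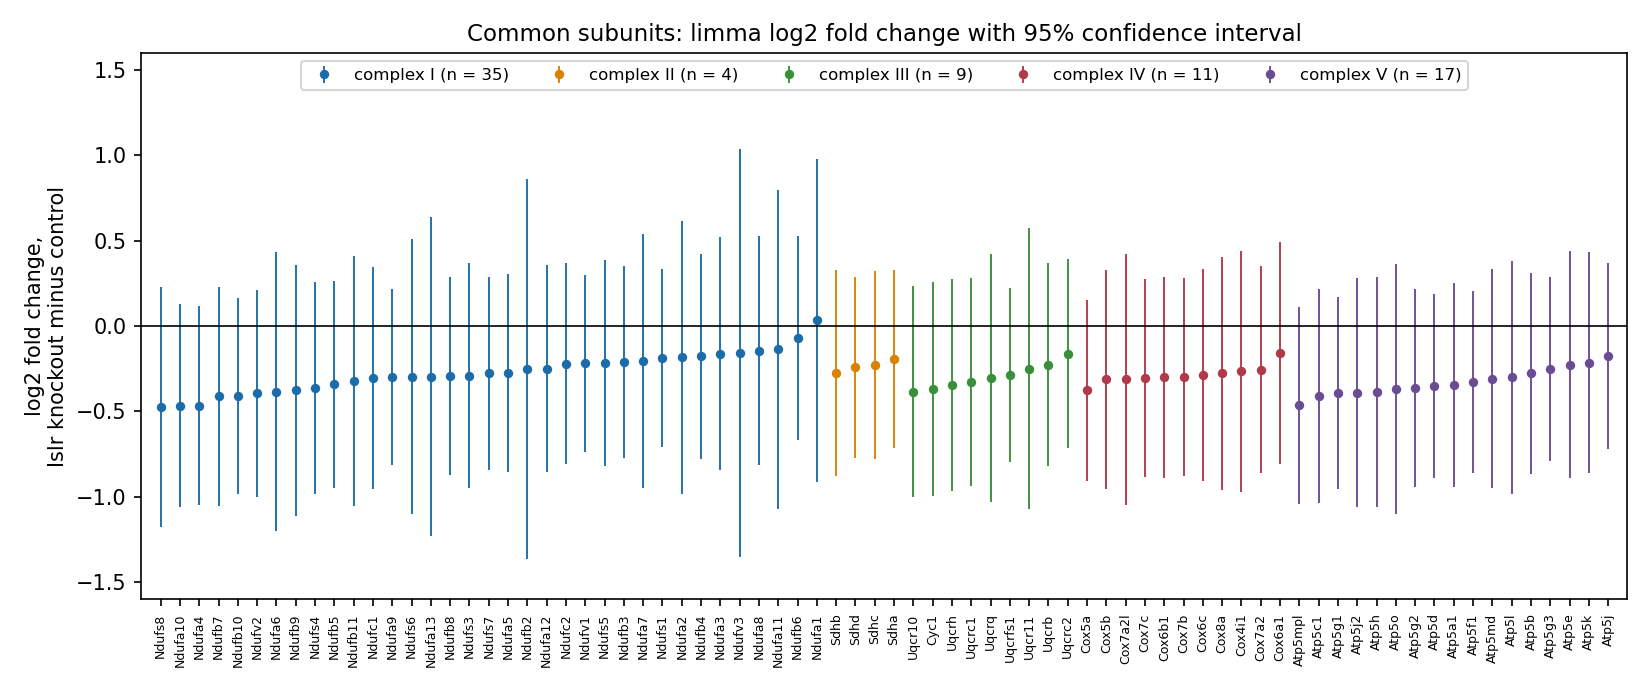
Log2 fold change of 76 of the 77 common subunits, Islr knockout minus control, with its 95% confidence interval from limma, ordered within complexes I to V. Points lie below 0 for 75 of these 76 subunits, and every interval drawn crosses 0.

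The differences within a replicate number were also set against transcript length. The common subunits have short transcripts, with a median of 745 bases, unlike most other genes: of the 8142 other genes with at least 100 scaled reads per kilobase, 280 were under 750 bases, 1395 between 750 and 1500, and 6467 longer. In number 1 the median difference of the subunits was -0.47, -0.41 and -0.25 in these 3 classes, holding 40, 22 and 15 subunits, and that of the other genes was -0.46, -0.34 and 0.03. In number 2 it was 0.15, 0.04 and -0.15 for the subunits, and 0.13, 0.09 and -0.12 for the other genes. In number 3 it was -0.54, -0.53 and -0.47 for the subunits, and -0.42, -0.26 and 0.06 for the other genes. Across the 77 common subunits, Pearson's r between the difference and log length was 0.63 in number 1, -0.54 in number 2 and -0.11 in number 3, and across the 8142 other genes it was 0.65, -0.30 and 0.32. These are descriptions across genes of the same libraries, with no test. In number 3 the subunits thus showed little relation to length. Short subunits had about the same median as other short genes in numbers 1 and 2, whereas subunits of 1500 bases or more had lower medians than other long genes in numbers 1 and 3.

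Over the 2 groups, the median log2 fold change of the subunits was -0.29, -0.29 and -0.28 in the 3 length classes, and that of other genes -0.23, -0.16 and -0.00. A difference between libraries of the same group showed the length pattern too: control 3 minus control 2 was 0.72, 0.44 and 0.02 for the subunits and 0.39, 0.28 and -0.25 for the other genes. The 40 subunits under 750 bases included 8 that were lower in all 3 pairs, the middle class 9 of 22 and the longest class 10 of 15. The background was 12.1% of all genes, and 18.5% among genes with at least 100 scaled reads per kilobase. It was not computed by length class, so these counts have no comparison at like length. The part of transcript length in the difference between the groups was not tested.

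**Figure D4:**
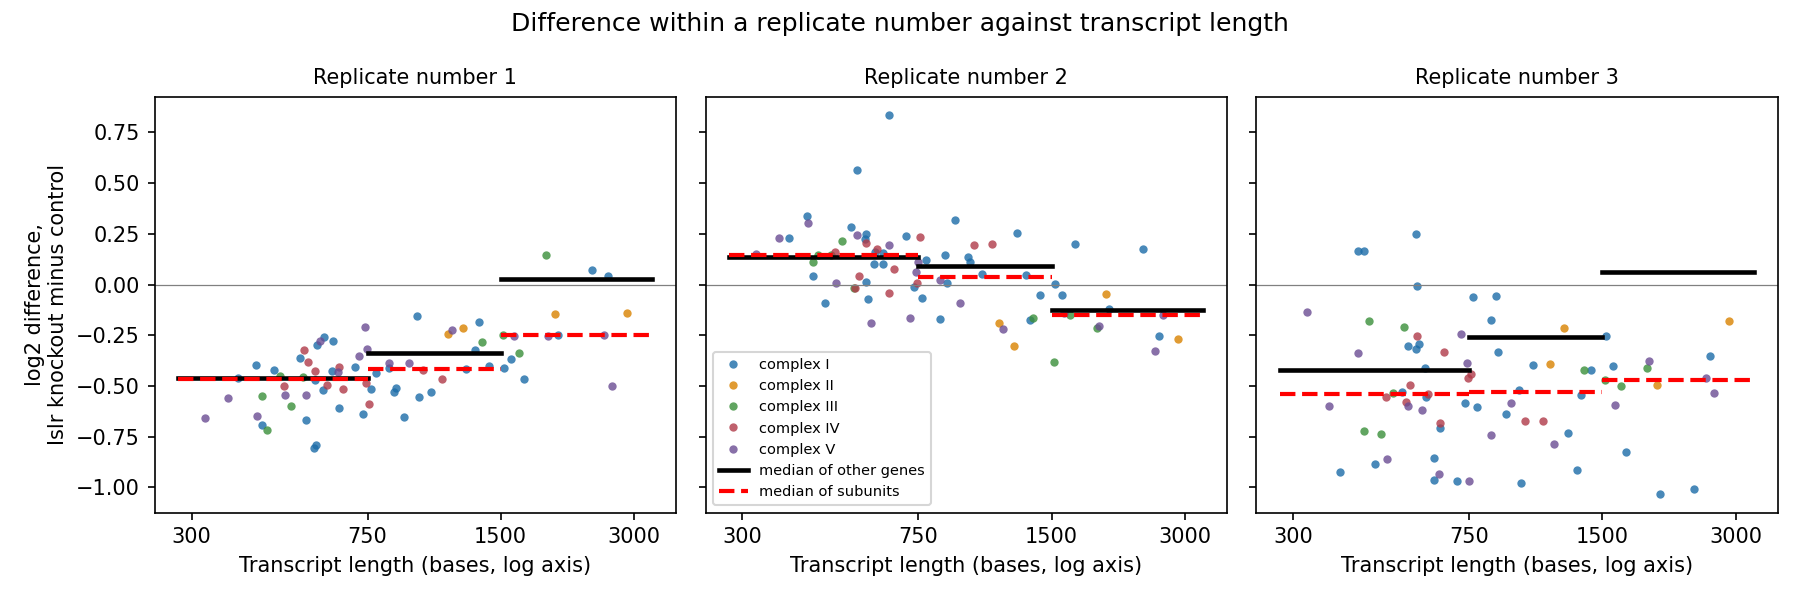
Difference between the knockout and control library of each replicate number (log2 scale) against transcript length in bases (log axis) for the 77 common subunits, coloured by complex. Solid bars are medians of other genes with at least 100 scaled reads per kilobase and dashed bars medians of the subunits in 3 length classes; the points slope upward in number 1 and downward in number 2, and lie mostly below 0 at every length in number 3.

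Shared sequence affects some of these counts. Of the 84 genes, 11 have near-identical transcripts (at least 95% identity over at least 50% of the length) in other annotated genes, among them Atp5l with 9 and Atp5h and Uqcrb with 3 each. Their median log2 fold change was -0.31, with 11 of 11 negative. Another annotated gene overlaps exons of Ndufb2, Ndufb8, Ndufb9 and Atp5o on the same strand, and these had the lowest levels among the common subunits, between 30.2 and 581 scaled reads per kilobase, so their levels are uncertain. The 69 tested genes with neither feature had a median of -0.28, with 65 negative. Exons of 24 genes overlap a gene on the opposite strand, such as Atp5j and Gabpa, and the sources used here do not say whether the counting used strand.

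Assembly factors of complexes I, II, III and V were mostly negative too, and those of complex IV were split. The background share of negative genes was 47% among all genes tested. It was 55.6% among genes with at least 100 scaled reads per kilobase. All 15 tested assembly factors of complex I had a negative log2 fold change, with a median of -0.28, and 0 passed the limma test. Ndufaf1, an early assembly factor, had 437, 435 and 379 scaled reads in knockout 1, 2 and 3, against 615, 485 and 774 in control 1, 2 and 3. It did not overlap between groups, with a log2 fold change of -0.56 ± 0.27 (SE). Foxred1, another assembly factor of complex I, also did not overlap, with -0.41 ± 0.27 (SE). Of 14 assembly factors of complexes II, III and V, 12 were negative, with a median of -0.18 and 0 past the test. Lyrm7, which helps to insert the Rieske protein, had -0.69 ± 0.49 (SE), and Atpif1, the inhibitor of ATP synthase, -0.57 ± 0.41 (SE). Of 20 tested assembly factors of complex IV, 13 were negative and 7 positive, with a median of -0.08 and 0 past the test. Taco1, a translational activator of the mitochondrial Cox1 message, had 253, 224 and 224 scaled reads in knockout 1, 2 and 3, against 327, 287 and 315 in control 1, 2 and 3, without overlap. The copper chaperone Sco1 had -0.33 ± 0.26 (SE).

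Over the groups, regulators of mitochondrial biogenesis showed no common sign. Of 17 tested, 11 had a negative log2 fold change and 6 a positive one, with a median of -0.08 and 0 past the test. Within numbers 1, 2 and 3 their median differences were 0.05, -0.26 and 0.05. The knockout library was the lower one for 7, 15 and 7 of the 17, so most were lower only in number 2. Ppargc1a, the coactivator PGC-1alpha, was low at 84.4, 107 and 179.9 scaled reads in knockout 1, 2 and 3, against 63.3, 111 and 120.2 in control 1, 2 and 3, a log2 fold change of 0.31 ± 0.45 (SE). Nrf1, whose product is a known activator of respiratory chain genes, had -0.30 ± 0.33 (SE) and was lower in all 3 pairs. The nuclear receptor gene Esrra had 0.03 ± 0.25 (SE). Tfam, which packages and transcribes mitochondrial DNA, had -0.23 ± 0.22 (SE), and Twnk, the mitochondrial helicase, -0.27 ± 0.24 (SE). The nuclear receptor gene Ppard had 0.28 ± 0.27 (SE).

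Metabolic partners of the chain also had mostly negative differences. The tricarboxylic acid cycle genes differed from the subunits in replicate numbers 1 and 2, and less in number 3. Of 18 tested genes of the tricarboxylic acid cycle and pyruvate dehydrogenase, 17 were negative, with a median of -0.20 and 0 past the test. Lower in all 3 pairs were 12 (background 12.1%, and 18.5% among genes with at least 100 scaled reads per kilobase). Within numbers 1, 2 and 3 their median differences were -0.08, -0.25 and -0.39, and 12, 18 and 15 of the 18 were lower in the knockout. In number 2, where 29 of the 83 subunits were lower, all 18 of these genes were. No test compared these genes with the subunits, and transcript length was not taken into account. In number 2 the common subunits of 1500 bases or more had a median of -0.15. Other genes of that length, with at least 100 scaled reads per kilobase, had -0.12. Idh2, the mitochondrial NADP-dependent isocitrate dehydrogenase, had 2542, 3471 and 1826 scaled reads in knockout 1, 2 and 3, against 3077, 5087 and 4169 in control 1, 2 and 3. Only knockout 2 exceeded a control library, and the log2 fold change was -0.67 ± 0.32 (SE, limma adjusted p = 1.0). Pdhb, a subunit of pyruvate dehydrogenase, had -0.35 ± 0.25 (SE). Of 15 electron carriers and exchange proteins, 11 were negative, with a median of -0.19 and 0 past the test. Slc25a4, an adenine nucleotide carrier, had -0.28 ± 0.28 (SE), and the outer membrane channel gene Vdac3 -0.27 ± 0.24 (SE). Ckmt2, the muscle mitochondrial creatine kinase, was at 21.7, 3.69 and 9.21 scaled reads in knockout 1, 2 and 3, against 11.1, 0 and 65.6 in control 1, 2 and 3, and so resembled the muscle isoforms in its spread. Its log2 fold change of 0.14 ± 1.43 (SE) was -1.17 in edgeR and in DESeq2.

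Over the groups, subunits of complexes I, III, IV and V that mitochondrial DNA encodes did not share the sign of the nuclear ones. Over 12 tested genes the median log2 fold change was 0.12, with 9 positive and 0 past the test. Within numbers 1, 2 and 3 their median differences were 0.62, 0.01 and -0.14. The knockout library was the lower one for 3, 6 and 7 of the 12. Knockout 1 was the highest library for 9 of the 12, and in numbers 2 and 3 the summed level was lower in the knockout. Their summed level per kilobase was 383181, 225948 and 240768 scaled reads in knockout 1, 2 and 3, against 236142, 249317 and 268701 in control 1, 2 and 3, so that knockout 1 was the highest library here and the lowest for the nuclear subunits.

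Markers of other cell types were present at low levels and moved with the groups in part. Over 10 endothelial markers the median log2 fold change was 0.83, with sums per kilobase of 97.2, 598 and 479 scaled reads in knockout 1, 2 and 3, against 97.9, 249 and 184 in control 1, 2 and 3. For the 9 tested markers of macrophages and immune cells the median was 0.73, with sums between 84.6 and 754 in the knockout libraries and between 142 and 288 in the control libraries, and C1qa, Cd52, Ptprc, Spi1 and Tyrobp were at 0 in some libraries. Fibroblast markers (11 tested, median 0.70) summed to between 2441 and 5929.9 in the knockout libraries and between 1509.8 and 5164 in the control libraries, with Dpt and Tcf21 at 0 in some. Schwann cell markers (8, median 0.62) summed to between 536 and 615 in the knockout libraries and between 246 and 488 in the control libraries. Pericyte and smooth muscle markers (7 tested, median 0.55) summed to between 577 and 793 in the knockout libraries and between 480.2 and 798 in the control libraries, with Higd1b and Kcnj8 at 0 in some. Satellite cell and myoblast markers, the list nearest to the labelled cell type, were all 10 detected in every library, with a median of -0.21 and sums between 29557 and 55976 in the knockout libraries and between 35404 and 59395 in the control libraries. These sums follow Des and Chrna1 in large part. Per kilobase, Des lay between 5841 and 23416.5 in the knockout libraries and between 4653 and 25206.5 in the control libraries. Chrna1 lay between 5119 and 10258, and between 5899 and 10410. The part of other cell types in the subunits' differences was not tested.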

How the data were processed

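The authors deposited 1 table of gene counts divided by a size factor per library, a signal scale per the file headers, beside their own log2 fold change and adjusted p-value, which were not used. A second deposited table holds raw counts of 1031 features. The submitters' processing notes name HTSeq, HISAT2 2.0.5, edgeR 3.18.1, DESeq2 1.16.1 and Trimmomatic without their roles. The sources used here do not give the annotation behind the counts. Of 27402 lines, 36 damaged ones were dropped. Every value came out as a whole number of reads within 0.01 (100%), equal to the raw count for 480 of 480 shared features. A further 12 columns with a value per sample were left out. The column of control 1 carries a 4-digit name with 2 digits exchanged against its label, and the other 5 equal theirs.

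The main test was limma 3.58.1 (trend and robust options, R 4.3.3), two-sided and unblocked, on log2(scaled reads + 1) of genes with a mean of at least 1, with Benjamini-Hochberg adjustment over 20344 genes and a threshold of 0.05. Fold changes on this scale understate those of low genes. Alternatives were edgeR 4.0.16 and DESeq2 1.42.0 on the recovered reads, a replicate block, other scalings, pseudocount and filters, and leaving out each library; the fits were tested on simulated data. As deviations from the group mean, knockout and control libraries of the same number correlated at 0.689, 0.633 and 0.625 (14280 genes), so the numbers were taken as pairs; this pairing comes from the data, not the labels. Levels per kilobase used the median length of GENCODE M21 protein-coding transcripts, and transcript copies were searched with BLAST 2.17.0.

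The members, gene lists and tests were chosen with earlier results of these data known. Named were the muscle isoforms with their partners, complex II, Cyc1, the 3 smallest limma p and 2 highest levels of the other complexes, members with groups not overlapping, other tissue-restricted subunits, and 2 genes of each list with 5 fixed ones; Islr and Myog served as checks. Other members are named to account for counts or after their values were seen. The values of 1 subunit that the rule names are not reported here, though it is part of all counts.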

Additional observations from a re-analysis of the deposited data

How the results depend on the processing

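In every alternative run, 0 genes and 0 subunits were called, and between 69 and 82 subunits had a negative log2 fold change. The medians of all 5 complexes stayed negative in these alternatives but moved with the library left out: without 1 library they ranged from -0.45 to -0.12 for complex I, -0.32 to -0.16 for complex II, -0.38 to -0.14 for complex III, -0.46 to -0.055 for complex IV and -0.42 to -0.26 for complex V. Scaling by library size alone left 17 subunits lower in all 3 pairs and 5 with groups not overlapping, against 27 and 10. That scaling also raised the median over all genes, and the shares over all genes were not computed with it. With the replicate block, the median over the subunits was -0.29, as without it, and the block changed no call. Direction was not stable for the isoforms: without 1 library, the difference in log2 ratio ranged from -2.44 to 1.08 for Cox6a2 to Cox6a1, from -0.67 to 0.19 for Cox7a1 to Cox7a2 and from -2.10 to 1.77 for Cox8b to Cox8a. The log2 fold change of Cox8b was -1.26 in DESeq2 and in edgeR and -0.60 in edgeR with the replicate block, and that of Ckmt2 was -1.17, -1.17 and -0.43. Leaving out 1 library, the log2 fold change ranged from -1.47 to 1.56 for Ckmt2, -0.70 to 0.26 for Ndufa4l2, -1.09 to 0.10 for Cox7a1, -2.42 to 1.70 for Cox8b, -2.62 to 0.85 for Cox6a2, -2.52 to 0.82 for Myog, -1.02 to 1.55 for Cox6b2, -0.31 to 0.071 for Cox6a1 and -0.11 to 0.15 for Esrra. The cause was not tested. Depth limits Cox8b, Cox4i2, Cox6b2 and Ckmt2, which were at 0, 1 or 2 reads in some libraries.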
